A study of Mus musculus with 6 samples.

Results

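The 33 genes described here are the mouse genes of the tumour necrosis factor (TNF) ligand and receptor superfamilies that carry a family symbol. They were chosen by name, as Tnf itself or any symbol that starts with Tnfsf or Tnfrsf followed by a digit, out of 55536 named genes. By kind they are 12 ligands, 20 receptors and 1 antisense RNA, Tnfsf13os. All 33 had a count in some library, and 24 of them, 8 ligands and 16 receptors, reached 5 CPM (counts scaled to a common library size) in at least 1 library. A further 14 superfamily genes have names outside the rule, such as Cd40, Fas and Ltb, and are given only as context.

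RNA sequencing was done on 6 groups of C57BL/6 cells from mice 8 weeks old, with 1 library in each. GM-BMDM are macrophages grown from bone marrow for 7 days with the growth factor GM-CSF. They were sequenced after 3 h of interleukin-6 (IL6) and without it. M-BMDM were grown for 7 days with M-CSF and were sequenced without IL6 and after 3 h and 24 h of it. Uncultured bone marrow cells (BM) are the starting population of both cultures, and no gene was altered in any group. The dose of IL6, the number of mice behind a library and a time-matched 24 h control are not given in the labels.

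TNF superfamily ligands are mostly trimeric proteins of the cell surface, and proteases release several of them in soluble form. Their receptors either carry a death domain, which can lead to cell death, or bind TRAF adaptors, which activate NF-kappaB and MAP kinases. Macrophages are a main source of TNF itself, and other members of the family govern osteoclast formation, B cell survival and the costimulation of T cells.

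With 1 library per group there is no replicate and no p-value. Each ratio compares 2 libraries and is given with its exact 95% Clopper-Pearson interval, which covers counting error only. A gene is counted as higher or lower when the libraries differed by 2-fold or more, the interval left out 1 and 1 of them reached 5 CPM. The libraries held 18567482 to 24196082 counts, and 3 counts, the floor used where a library had 0, equal 0.123 to 0.164 scaled CPM. Macrophage markers (8 genes, summed) had 46070 CPM in GM-BMDM with IL6 and 47330 in GM-BMDM, 33210, 37700 and 25380 in M-BMDM after 0, 3 and 24 h of IL6, and 5515 in BM. None of the 8 was at 0 in any library. The 3 h libraries lay very close to their controls across all genes, with Pearson correlations of log2(CPM + 1) of 0.996 for GM-BMDM and 0.995 for M-BMDM. Socs3, a feedback inhibitor that IL6 signalling induces, had 141 CPM in GM-BMDM with IL6 and 142 in GM-BMDM, and 102, 99.3 and 7.60 in M-BMDM after 0, 3 and 24 h of IL6.

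Per gene length, the TNF receptor Tnfrsf1b led the family in all cultures but the 24 h one. The ligands at the top were Tnf in M-BMDM after 0 and 3 h of IL6, and Tnfsf12 in the other cultures. In TPM (counts scaled by the deposited gene length and to a common sum), all 33 members together had 1229 in GM-BMDM with IL6 and 1205 in GM-BMDM. They had 1765, 1677 and 867 TPM in M-BMDM after 0, 3 and 24 h of IL6, and 791 in BM. Tnfrsf1b alone made up 29.2% of this sum in GM-BMDM with IL6 and 30% in GM-BMDM, 37.6%, 38.3% and 17.4% in M-BMDM after 0, 3 and 24 h, and 6.04% in BM. The map of levels by library shows 24 members.

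**Figure D1:**
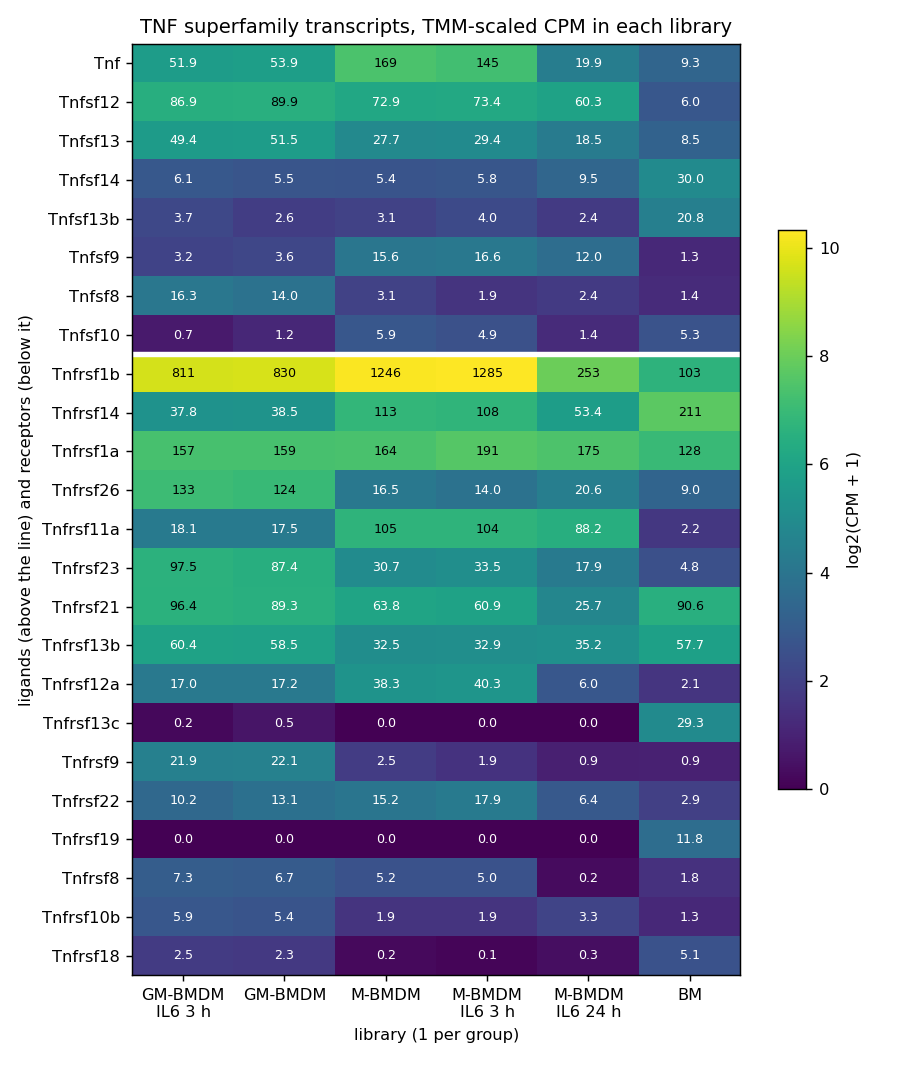
TMM-scaled CPM of the 24 members that reached 5 CPM, ligands above the white line and receptors below it, in 1 library per group. Colour shows log2(CPM + 1) and the number in each cell is the CPM. Tnfrsf1b is the brightest row in the cultures, and Tnfrsf13c and Tnfrsf19 reach 5 CPM only in BM.

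Tnf encodes the founding ligand of the family. Its level was 51.9 CPM in GM-BMDM with IL6 and 53.9 in GM-BMDM, 169, 145 and 19.9 in M-BMDM after 0, 3 and 24 h of IL6, and 9.26 in BM. M-BMDM without IL6 and after 3 h of it was high, both GM-BMDM libraries lay lower, and M-BMDM after 24 h of IL6 was the lowest culture, above BM. Tnf was 18.3-fold higher in M-BMDM than in BM (log2 ratio 4.19, 95% interval 3.996 to 4.393) and 5.82-fold in GM-BMDM (2.54). Between the cultures, its log2 ratio of GM-BMDM over M-BMDM was -1.65 (-1.75 to -1.55). After 24 h of IL6 it was 8.52-fold lower than in M-BMDM without IL6 (log2 ratio -3.09, -3.23 to -2.95).

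Tnfrsf1b, the TNF receptor without a death domain, is found mainly on blood cells and endothelium. It had 811 CPM in GM-BMDM with IL6 and 829.5 in GM-BMDM, 1246, 1285 and 253 in M-BMDM after 0, 3 and 24 h of IL6, and 103 in BM. Like Tnf, it was high in M-BMDM without IL6 and after 3 h of it, and lower in the 24 h culture. It was 12.1-fold higher in M-BMDM than in BM (log2 3.60, 3.54 to 3.66), 8.08-fold in GM-BMDM (3.01) and 4.92-fold lower after 24 h of IL6 than without it (-2.30). GM-BMDM and M-BMDM differed by less than 2-fold (-0.59).

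Tnfrsf1a, the TNF receptor with a death domain, is expressed by most cell types. It was near level, with 157 CPM in GM-BMDM with IL6 and 159 in GM-BMDM, 164, 191 and 175 in M-BMDM after 0, 3 and 24 h of IL6, and 128 in BM. It was not counted in any of the 7 comparisons, with log2 ratios of 0.36 for M-BMDM over BM, -0.05 for GM-BMDM over M-BMDM and 0.09 for M-BMDM after 24 h of IL6 over M-BMDM. The balance of the receptors therefore followed Tnfrsf1b. In TPM, Tnfrsf1b over Tnfrsf1a was 2.91 in GM-BMDM with IL6 and 2.95 in GM-BMDM, 4.29, 3.80 and 0.818 in M-BMDM after 0, 3 and 24 h of IL6, and 0.453 in BM. Tnfrsf1a thus had the higher level per length in the 24 h culture and in BM.

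The promoters of these genes are shown because Tnf and Tnfrsf1b differed strongly between libraries and Tnfrsf1a did not. Each is the 250 bases before a start site in the RefSeq annotation (build GRCm38.p6), written 5′ to 3′ on the gene's strand. Capitals mark matches to short motifs, searched on both strands.
Tnf, chr17:35202008-35202257, minus strand: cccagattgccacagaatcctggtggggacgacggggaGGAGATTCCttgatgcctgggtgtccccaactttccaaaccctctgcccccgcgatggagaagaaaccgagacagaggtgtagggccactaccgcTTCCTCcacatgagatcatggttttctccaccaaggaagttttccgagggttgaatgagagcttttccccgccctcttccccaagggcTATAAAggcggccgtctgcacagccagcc
Tnfrsf1b, chr4:145246871-145247120, minus strand: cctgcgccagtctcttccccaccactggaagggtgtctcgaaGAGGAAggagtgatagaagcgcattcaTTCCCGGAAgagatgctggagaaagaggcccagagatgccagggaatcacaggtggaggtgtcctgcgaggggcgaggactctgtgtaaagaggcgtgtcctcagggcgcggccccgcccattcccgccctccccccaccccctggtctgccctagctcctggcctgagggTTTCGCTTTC
Tnfrsf1a, chr6:125349473-125349722, plus strand: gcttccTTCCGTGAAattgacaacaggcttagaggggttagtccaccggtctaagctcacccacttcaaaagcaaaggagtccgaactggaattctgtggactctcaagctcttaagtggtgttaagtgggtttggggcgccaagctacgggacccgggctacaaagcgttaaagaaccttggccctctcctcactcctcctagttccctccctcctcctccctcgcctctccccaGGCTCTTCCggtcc
In the Tnf window the capitals are, in order, a match to GGNNNTTCC (a short NF-kappaB pattern, first base at -212 from the start), to the PU.1 core GAGGAA on the other strand (at -117) and to the TATA box motif (TATAAA, at -29). The Tnfrsf1b window holds a PU.1 match at -208, TTCNNNGAA (a STAT pattern) at -181 and an IRF motif on the other strand at -10. The Tnfrsf1a window holds a STAT match at -244 and a short NF-kappaB match at -14. Of 32851 RefSeq promoter windows, which also span the 50 bases after the start, 18.5% hold the short NF-kappaB pattern, 28.3% the PU.1 core, 13.6% the TATA box, 8.30% the STAT pattern and 3.44% the IRF motif. The other motifs searched were the AP-1 pattern and the further NF-kappaB pattern described with Tnfrsf9, the CRE core TGACGT (7.51% of windows, Tnfrsf23 among the members) and a strict NF-kappaB pattern (0.411%, no member). These matches describe letters and not bound sites. Promoter windows were found for 25 of the 33 members, 29 in all. Among the 29, the STAT pattern was in those of 6 members (Tnfrsf18, Tnfrsf19, Tnfrsf1a, Tnfrsf1b, Tnfrsf25 and Tnfrsf9).

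Tnfsf12 encodes TWEAK, a ligand that acts on Fn14, the product of Tnfrsf12a, in tissue repair. Tnfsf12 had 86.9 CPM in GM-BMDM with IL6 and 89.9 in GM-BMDM, 72.9, 73.4 and 60.3 in M-BMDM after 0, 3 and 24 h of IL6, and 5.97 in BM. All cultures were far above BM and close to each other, with folds over BM of 15.1 for GM-BMDM (log2 3.91) and 12.2 for M-BMDM (3.61). Its receptor Tnfrsf12a had 17.0 CPM in GM-BMDM with IL6 and 17.2 in GM-BMDM, 38.3, 40.3 and 5.98 in M-BMDM after 0, 3 and 24 h of IL6, and 2.06 in BM. The receptor was 18.6-fold higher in M-BMDM than in BM (4.22) and 8.38-fold in GM-BMDM (3.07). GM-BMDM was lower than M-BMDM (-1.15), and the 24 h culture was 6.41-fold lower than M-BMDM without IL6 (-2.68). After 24 h of IL6, then, Tnfsf12 stayed within 2-fold (-0.27) while its receptor was lower. Tnfsf12 and Tnfsf13 adjoin on chromosome 11 with 0.466 kb between them. The read-through gene Tnfsfm13 covers 48.3% of the exon bases of Tnfsf12 and 60% of those of Tnfsf13 on the same strand, and Tnfsf13os covers 13.5% of those of Tnfsf13 on the opposite strand. How reads of these genes were divided is not given in the sources used here.

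Tnfrsf11a encodes RANK, the receptor through which RANK ligand (Tnfsf11) drives macrophages into osteoclasts. It had 18.1 CPM in GM-BMDM with IL6 and 17.5 in GM-BMDM, 105, 104 and 88.2 in M-BMDM after 0, 3 and 24 h of IL6, and 2.18 in BM. All 3 M-BMDM libraries were above both GM-BMDM libraries. Tnfrsf11a had the largest ratio of M-BMDM over BM among the members with a count in both libraries, 48.3-fold (log2 5.59, 5.20 to 6.02), against 8.02-fold for GM-BMDM over BM (3.00). GM-BMDM over M-BMDM was -2.59 (-2.75 to -2.43) without IL6 and -2.53 with 3 h of it. The 24 h culture differed from M-BMDM without IL6 by less than 2-fold (-0.26).

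The ligand and the decoy of this system were scarce. Tnfsf11 had 17 counts in BM and 0 in every culture. Tnfrsf11b, the soluble decoy osteoprotegerin, had 28 counts in GM-BMDM with IL6 and 49 in GM-BMDM, 5, 2 and 4 in M-BMDM after 0, 3 and 24 h of IL6, and 0 in BM. Of 10 osteoclast partners of RANK, 7 had 5 CPM in GM-BMDM or M-BMDM, and 4 of them were higher in GM-BMDM than in the M-CSF culture, and 1 was lower. The 4 were Atp6v0d2, a subunit of the proton pump (log2 ratio 4.87), the phosphatase Acp5 (4.17), the collagen-degrading protease Ctsk (3.68) and the fusion protein Dcstamp (2.62). Mmp9, a gelatinase that neutrophils also hold, was the lower one (-3.98). Of all genes in this comparison, 10.8% were higher and 8.64% lower. So GM-BMDM had less RANK than M-BMDM, while 4 of these partners were higher there. After 24 h of IL6, 3 of 7 partners were lower than in M-BMDM without IL6, namely Mmp9 (-3.05), Ctsk (-1.43) and the integrin subunit Itgb3 (-1.40), and none was higher. Of all genes at 24 h, 8.93% were lower and 11.5% higher.

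Tnfsf13b and Tnfsf13 encode BAFF and APRIL, the survival factors of B cells and plasma cells. Tnfsf13b had 3.66 CPM in GM-BMDM with IL6 and 2.62 in GM-BMDM, 3.06, 3.99 and 2.37 in M-BMDM after 0, 3 and 24 h of IL6, and 20.8 in BM. Its log2 ratio over BM was -2.99 for GM-BMDM and -2.77 for M-BMDM, so every culture was low and BM was high. Tnfsf13 ran the other way, with 49.4 CPM in GM-BMDM with IL6 and 51.5 in GM-BMDM, 27.7, 29.4 and 18.5 in M-BMDM after 0, 3 and 24 h of IL6, and 8.48 in BM. Relative to BM it was 6.07-fold higher in GM-BMDM (2.60) and 3.27-fold higher in M-BMDM (1.71).

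Their receptors are TACI (Tnfrsf13b), which binds both ligands, the BAFF receptor (Tnfrsf13c) and BCMA (Tnfrsf17), the receptor of plasma cells. Tnfrsf13b had 60.4 CPM in GM-BMDM with IL6 and 58.5 in GM-BMDM, 32.5, 32.9 and 35.2 in M-BMDM after 0, 3 and 24 h of IL6, and 57.7 in BM. TACI was thus about as high in GM-BMDM as in BM (0.02) and lower by less than 2-fold in M-BMDM (-0.83). Tnfrsf13c, by contrast, had 3 counts in GM-BMDM with IL6, 11 in GM-BMDM, 0 in all 3 M-BMDM libraries and 713 in BM. It was at least 182-fold lower in M-BMDM than in BM, against the floor of 3 counts in M-BMDM, and its log2 ratio was -5.86 for GM-BMDM over BM. Tnfrsf17 had 2 counts in M-BMDM after 3 h of IL6, 1 after 24 h, 0 in the other cultures and 14 in BM.

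A set of 7 B lineage markers, among them Cd79a and Pax5, moved with the BAFF receptor. Their summed level was 0.601 CPM in GM-BMDM with IL6 and 0.828 in GM-BMDM, 0.698, 0.272 and 0.872 in M-BMDM after 0, 3 and 24 h of IL6, and 688 in BM. Of the 7, 3 were at 0 in GM-BMDM with IL6, 2 in GM-BMDM, 2, 4 and 3 in M-BMDM after 0, 3 and 24 h, and none in BM. Their part in the Tnfrsf13c and Tnfrsf17 results was not tested, and in bulk RNA fewer cells of a type and less RNA per cell cannot be told apart.

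Among the costimulatory pairs of T cell biology, Tnfsf9 encodes the ligand of 4-1BB, and Tnfrsf9 encodes 4-1BB itself. Tnfsf9 had 3.17 CPM in GM-BMDM with IL6 and 3.59 in GM-BMDM, 15.6, 16.6 and 12.0 in M-BMDM after 0, 3 and 24 h of IL6, and 1.28 in BM. Tnfrsf9 had 21.9 CPM in GM-BMDM with IL6 and 22.1 in GM-BMDM, 2.52, 1.86 and 0.872 in M-BMDM after 0, 3 and 24 h, and 0.946 in BM. The ligand was high in the M-BMDM libraries and the receptor in the GM-BMDM libraries. GM-BMDM over M-BMDM was -2.12 for the ligand and 3.13 (2.70 to 3.60) for the receptor. Without IL6, the receptor in GM-BMDM was 23.4-fold above BM (4.55, 3.94 to 5.22), and the ligand in M-BMDM was 12.2-fold above BM (3.61). Gm11110, a non-coding gene on the opposite strand, covers 14.9% of the exon bases of Tnfsf9.

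Tnfrsf9 has 2 start sites in the RefSeq table, and the window of the second one is shown because it holds the family's match to GGGNNTTCC, an NF-kappaB pattern with 1 more fixed letter, nearest to a start.
Tnfrsf9, chr4:150927749-150927998, plus strand: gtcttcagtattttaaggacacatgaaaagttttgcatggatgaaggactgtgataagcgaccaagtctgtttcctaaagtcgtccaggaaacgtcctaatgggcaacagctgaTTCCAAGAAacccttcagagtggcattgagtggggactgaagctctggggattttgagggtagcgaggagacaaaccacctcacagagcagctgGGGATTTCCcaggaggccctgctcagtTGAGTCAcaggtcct
In capitals are a STAT match at -136, an NF-kappaB match at -42, which fits this pattern and the short one, and an AP-1 match (TGANTCA) at -15. That pattern, GGGNNTTCC, is in 5.82% of all promoter windows and, among the members, in those of Tnfrsf9 and Tnfrsf13b. The AP-1 pattern is in 7.81% of all windows. The window of the first start held none of the 9 motifs searched.

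Tnfsf8 encodes the ligand of CD30, and Tnfrsf8 encodes CD30, a receptor of activated lymphocytes. Tnfsf8 had 16.3 CPM in GM-BMDM with IL6 and 14.0 in GM-BMDM, 3.11, 1.95 and 2.41 in M-BMDM after 0, 3 and 24 h of IL6, and 1.44 in BM. It was high in both GM-BMDM libraries, with log2 ratios of 2.17 (1.76 to 2.60) over M-BMDM and 3.28 over BM. Tnfrsf8 had 7.32 CPM in GM-BMDM with IL6 and 6.71 in GM-BMDM, 5.16, 5.03 and 0.249 in M-BMDM after 0, 3 and 24 h, and 1.81 in BM. The 24 h library, with 6 counts, was 20.7-fold lower than M-BMDM without IL6 (-4.37, -5.85 to -3.20). Tnfrsf8 lies 20.3 kb from Tnfrsf1b on chromosome 4 with no protein-coding gene between them, and both were lower at 24 h.

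Tnfsf14 encodes LIGHT, which binds HVEM, the product of Tnfrsf14, and the lymphotoxin beta receptor. Tnfsf14 had 6.12 CPM in GM-BMDM with IL6 and 5.52 in GM-BMDM, 5.42, 5.85 and 9.55 in M-BMDM after 0, 3 and 24 h of IL6, and 29.99 in BM. Tnfrsf14 had 37.8 CPM in GM-BMDM with IL6 and 38.5 in GM-BMDM, 113, 108 and 53.4 in M-BMDM after 0, 3 and 24 h, and 211 in BM. Both genes were highest in BM. LIGHT was lower than in BM in GM-BMDM (-2.44) and in M-BMDM (-2.47), whereas HVEM was lower in GM-BMDM (-2.46) but within 2-fold of BM in M-BMDM (-0.91). Scaled by total counts instead of TMM, HVEM in M-BMDM was lower than in BM by more than 2-fold (-1.07). GM-BMDM was also below M-BMDM in HVEM (-1.55). After 24 h of IL6 it was 2.11-fold lower than without it (-1.08), or -0.94 with total counts, which is within 2-fold.

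GITR (Tnfrsf18) and OX40 (Tnfrsf4), receptors of regulatory and activated T cells, lie 9.55 kb apart on chromosome 4. Tnfrsf18 had 2.51 CPM in GM-BMDM with IL6 and 2.30 in GM-BMDM, 0.215, 0.0907 and 0.291 in M-BMDM after 0, 3 and 24 h of IL6, and 5.14 in BM. Against BM it was lower in GM-BMDM (-1.16) and lower again in M-BMDM (-4.58). An antisense gene, Gm16008, covers 27.2% of its exon bases, and whether counting used strand is not given in the sources used here. Tnfrsf4 had 36 counts in BM and 5 to 10 in each culture. T and NK cell markers (9 genes) had 317.5 CPM in sum in GM-BMDM with IL6, 364.5 in GM-BMDM and 84.2 in BM. In M-BMDM they had 164, 143 and 80.6 CPM after 0, 3 and 24 h of IL6. Most of the culture sums was Il7r, with 316 CPM in GM-BMDM with IL6 and 363 in GM-BMDM, against 34.9 in BM. Of the 9, 4 were at 0 in each GM-BMDM library, 4, 6 and 6 in M-BMDM, and none in BM. The part of T and NK cells in these results was not tested.

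Tnfsf10 encodes TRAIL, a ligand that can kill tumour cells through DR5, the product of Tnfrsf10b. Tnfsf10 had 0.656 CPM in GM-BMDM with IL6 and 1.24 in GM-BMDM, 5.91, 4.90 and 1.41 in M-BMDM after 0, 3 and 24 h of IL6, and 5.31 in BM. It was low in GM-BMDM, with log2 ratios of -2.25 over M-BMDM and -2.10 over BM, and lower after 24 h of IL6 than without it (-2.07). Against the 3 h library, which had under 5 CPM, the 24 h value was not counted (-1.79). Tnfrsf10b had 5.90 CPM in GM-BMDM with IL6 and 5.43 in GM-BMDM, 1.93, 1.95 and 3.32 in M-BMDM after 0, 3 and 24 h, and 1.28 in BM. DR5 in GM-BMDM was above M-BMDM (1.49) and BM (2.09). With total counts its level in GM-BMDM fell under the 5 CPM minimum, and neither ratio was then counted (1.33 over M-BMDM and 1.76 over BM).

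A cluster on mouse chromosome 7 holds Tnfrsf26, Tnfrsf22 and Tnfrsf23, separated by 6.08 and 16.1 kb with no other protein-coding gene between. In the mouse, Tnfrsf22 and Tnfrsf23 encode decoy receptors for TRAIL. Tnfrsf26 had 133 CPM in GM-BMDM with IL6 and 124.5 in GM-BMDM, 16.5, 14.0 and 20.6 in M-BMDM after 0, 3 and 24 h of IL6, and 8.97 in BM. Tnfrsf23 had 97.5 CPM in GM-BMDM with IL6 and 87.4 in GM-BMDM, 30.7, 33.5 and 17.9 in M-BMDM after 0, 3 and 24 h, and 4.81 in BM. Both were highest in the GM-BMDM libraries, at 13.9-fold for Tnfrsf26 (log2 3.80) and 18.2-fold for Tnfrsf23 (4.18) over BM, and at 2.92 and 1.51 on the log2 scale over M-BMDM.

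Tnfrsf22, between them on the chromosome, did not follow. It had 10.2 CPM in GM-BMDM with IL6 and 13.1 in GM-BMDM, 15.2, 17.9 and 6.44 in M-BMDM after 0, 3 and 24 h of IL6, and 2.88 in BM. Against BM it was higher in GM-BMDM (2.18) as well as M-BMDM (2.40), and GM-BMDM over M-BMDM was -0.22. In the 24 h culture it was lower than in M-BMDM without IL6 (-1.24). Tnfrsf22 shares 17.3% of its 50-base stretches with Tnfrsf23, so reads of this pair may be divided between them, while it shares 0 with Tnfrsf26.

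Tnfrsf21 encodes DR6, a death domain receptor. It had 96.4 CPM in GM-BMDM with IL6 and 89.3 in GM-BMDM, 63.8, 60.9 and 25.7 in M-BMDM after 0, 3 and 24 h of IL6, and 90.6 in BM. The 24 h culture was lowest, with a log2 ratio of -1.31 over M-BMDM without IL6, and GM-BMDM was level with BM (-0.02). Tnfrsf19, which encodes TROY, an orphan receptor of epithelial and neural tissue, had 287 counts in BM (11.8 CPM) and 0 in all 5 cultures. Against BM, GM-BMDM was at least 85.6-fold lower and M-BMDM at least 73.3-fold lower. The 8 stromal and osteoblast markers had 16.4 CPM in sum in GM-BMDM with IL6, 20.5 in GM-BMDM, 20.1, 14.5 and 12.8 in M-BMDM after 0, 3 and 24 h of IL6, and 836 in BM, and their part in the Tnfrsf19 result was not tested.

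The 9 members under 5 CPM in all libraries are Tnfrsf11b, Tnfrsf17, Tnfrsf25, Tnfrsf4, Tnfsf11, Tnfsf13os, Tnfsf15, Tnfsf18 and Tnfsf4. The most abundant of them by count was Tnfsf4, the ligand of OX40, with 88 counts in GM-BMDM with IL6 and 82 in GM-BMDM, 31, 26 and 35 in M-BMDM after 0, 3 and 24 h of IL6, and 2 in BM. Tnfsf15, which encodes TL1A, had 33 counts in each GM-BMDM library, 14, 0 and 2 in M-BMDM after 0, 3 and 24 h, and 1 in BM. Its receptor DR3, Tnfrsf25, had 18 counts in BM and 0 in every culture. Tnfsf18, the ligand of GITR, had 0 to 12 counts in a library, and Tnfsf13os 12 to 38. None of these 9 could be counted in any comparison, since the 5 CPM minimum excluded them.

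**Figure D2:**
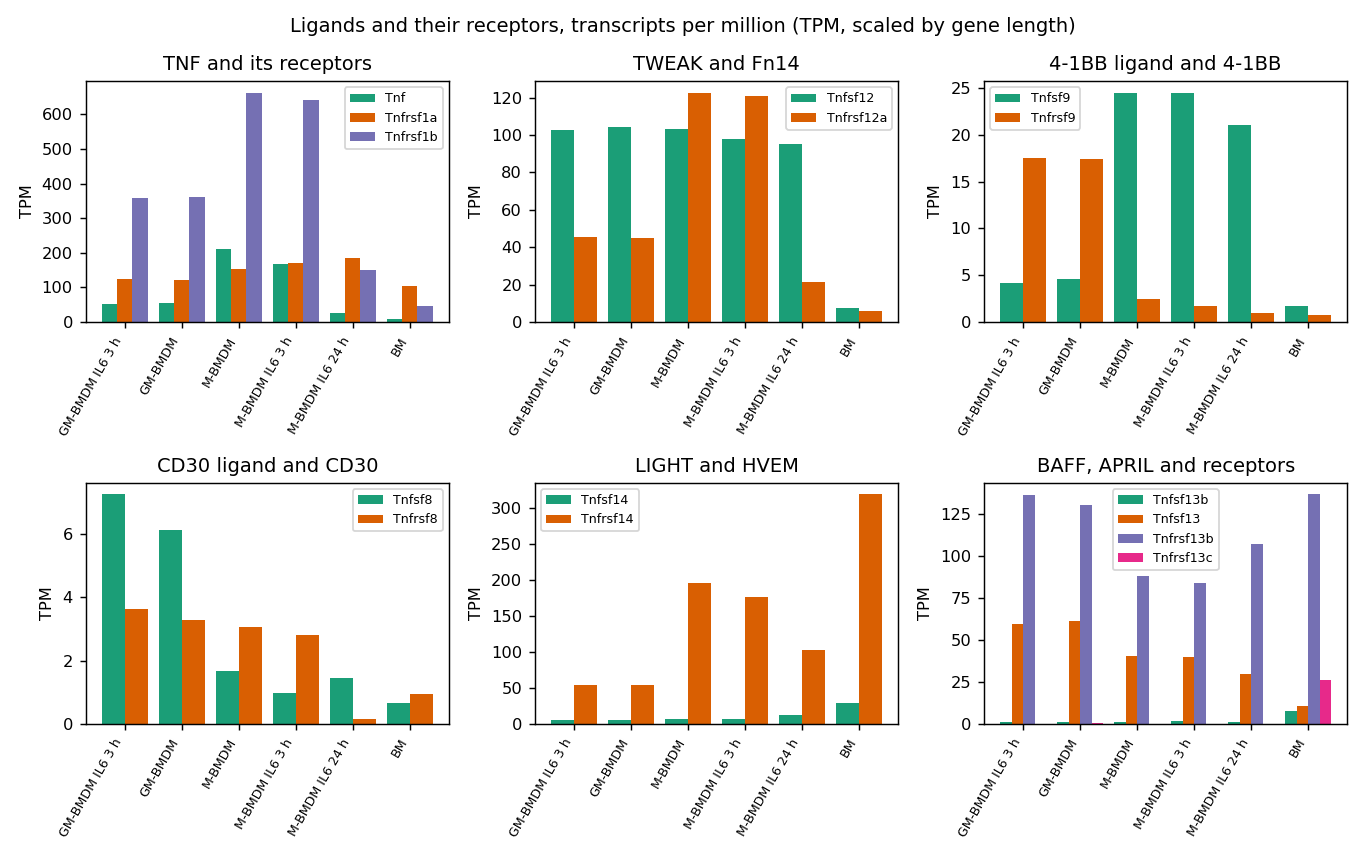
TPM of ligands and their receptors in each library, 1 bar per gene and library without error bars since each group has 1 library; vertical axes differ between panels. Tnfrsf1b stands above Tnfrsf1a in the GM-BMDM libraries and in M-BMDM after 0 and 3 h of IL6, and below it after 24 h and in BM, and Tnfsf9 and Tnfrsf9 are high in opposite macrophage types.

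Read by comparison, most members with 5 CPM differed between cultures and marrow. In GM-BMDM against BM, 23 members had 5 CPM in either library, of which 13 were higher, 7 lower and 3 neither, with a median log2 ratio of 2.09. Over all 11367 genes at 5 CPM, 19.8% were higher and 22.3% lower, with a median of -0.04. In M-BMDM against BM, 10 of 21 members were higher, 5 lower and 6 neither, with a median of 0.88. Over all 11245 genes, 20.1% were higher and 23% lower, with a median of 0.02. Both comparisons use the same BM library. The higher share of members was thus above that of all genes in each, and the lower share was 7 of 23 and 5 of 21. Neutrophil markers (10 genes), whose cells fill the marrow, had 28.7 CPM in sum in GM-BMDM with IL6, 27.6 in GM-BMDM, 47.6, 47.8 and 35.5 in M-BMDM after 0, 3 and 24 h of IL6, and 36980 in BM. Erythroid markers (8 genes) had 5.63 CPM in sum in GM-BMDM with IL6, 5.61 in GM-BMDM, 10.4, 6.21 and 9.22 in M-BMDM after 0, 3 and 24 h, and 81720 in BM. The markers of basophils, mast cells and eosinophils (8 genes) had 65.5 CPM in GM-BMDM with IL6, 60.6 in GM-BMDM and 3360 in BM. In M-BMDM these markers had 2.52, 4.13 and 1.54 CPM after 0, 3 and 24 h of IL6. Siglecf made up nearly all of both GM-BMDM sums, at 63.5 CPM with IL6 and 59.2 without it, and had 26.2 in BM. For GM-BMDM against BM, Siglecf was the 1 marker of the 8 counted as higher, while 7 were lower. For M-BMDM against BM, all 8 were lower. Megakaryocyte and platelet markers (6 genes) had 106.1 CPM in GM-BMDM with IL6, 106.2 in GM-BMDM, 48.2, 52.5 and 30.5 in M-BMDM after 0, 3 and 24 h, and 584 in BM. Most of the culture sums was Pf4, with 74.1 CPM in GM-BMDM with IL6, 74.4 in GM-BMDM and 66.0 in BM. Of these 6 markers, 5 were lower than in BM in GM-BMDM and 5 in M-BMDM, and none was higher. The part of these cells in the ratios against BM was not tested.

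In GM-BMDM against M-BMDM, 5 of 20 members were higher and 6 lower, with a median log2 ratio of 0.16. Over all 10495 genes, 10.8% were higher and 8.64% lower, with a median of -0.02. The higher members were Tnfrsf9, Tnfrsf26, Tnfsf8, Tnfrsf23 and Tnfrsf10b, and the lower ones Tnfrsf11a, Tnfsf10, Tnfsf9, Tnf, Tnfrsf14 and Tnfrsf12a. The libraries with 3 h of IL6 form a second pair of other libraries. The labels do not say that these came from separate cultures, and they lay close to their controls, so the second pair may not be an independent repeat. In GM-BMDM with IL6 against M-BMDM after 3 h of IL6, 5 of 19 members were higher and 5 lower, while 10.6% of 10449 genes were higher and 8.06% lower. All 10 members counted in that pair were counted the same way in the pair without IL6, where 10 of 11 were shared. Tnfsf10 was the exception, with under 5 CPM in both libraries given IL6. The log2 ratios with and without IL6 were 3.56 and 3.13 for Tnfrsf9, 3.25 and 2.92 for Tnfrsf26, -1.48 and -1.65 for Tnf, and -1.52 and -1.55 for Tnfrsf14. Dendritic cell markers (8 genes) were also higher in sum in GM-BMDM than in M-BMDM. Their sum was 1029 CPM in GM-BMDM with IL6 and 1035 in GM-BMDM, and 28.0, 26.7 and 15.3 in M-BMDM after 0, 3 and 24 h of IL6. Most of it was Itgax, the integrin CD11c, with 986.5 CPM in GM-BMDM with IL6 and 994 in GM-BMDM, and 26.2, 24.9 and 14.7 in M-BMDM. Of the 8 markers, 3 had 5 CPM in GM-BMDM or M-BMDM, and all 3 were higher in GM-BMDM, with a median log2 ratio of 6.56. The rest had under 5 CPM in both of these libraries. In BM the sum was 130 CPM. Of 7 markers with 5 CPM in GM-BMDM or BM, 2 were higher in GM-BMDM and 4 lower, with a median of -1.44. At 0 were 1 of the 8 in GM-BMDM with IL6 and 1 in GM-BMDM, 1, 0 and 2 in M-BMDM after 0, 3 and 24 h of IL6, and none in BM. The part of dendritic cells in the differences was not tested.

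**Figure D3:**
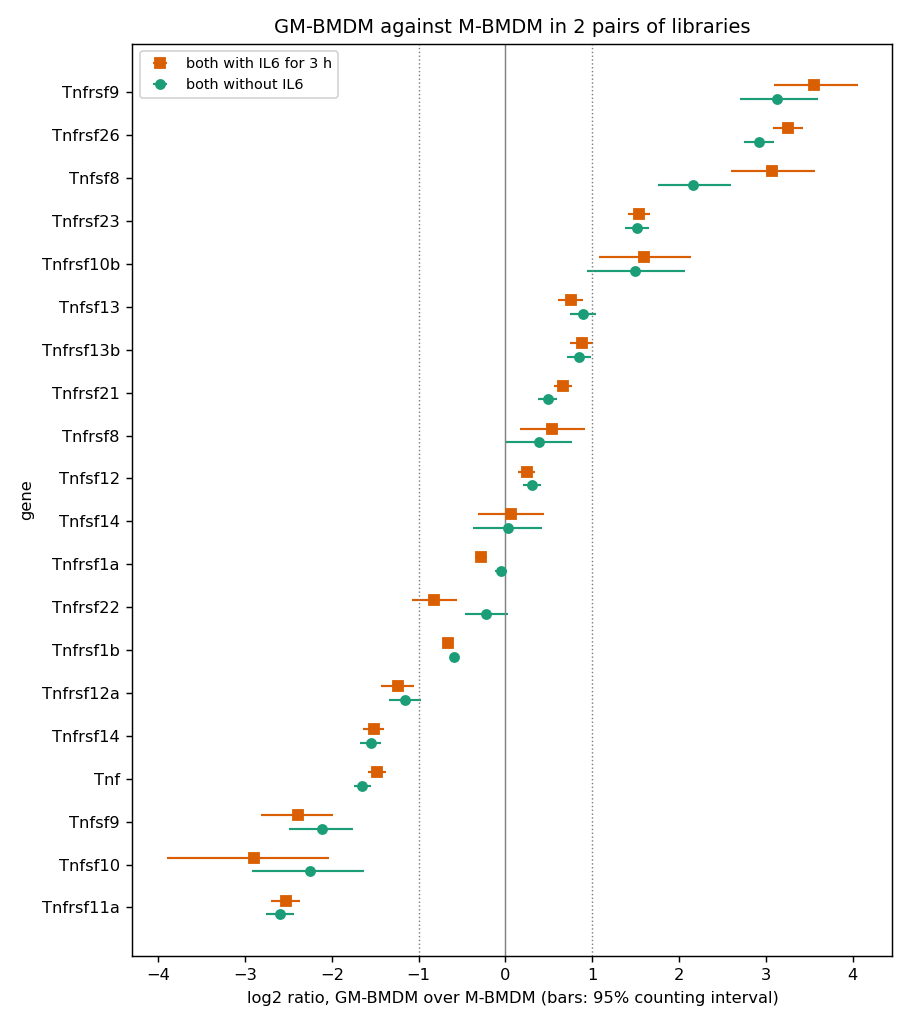
Log2 ratio of GM-BMDM over M-BMDM for the 20 members with 5 CPM in either library without IL6, with 95% counting intervals; squares are the libraries with 3 h of IL6 and circles those without it. Dotted lines mark 2-fold; Tnfrsf9 (3.56 and 3.13) lies at the top, and Tnfsf10 (-2.90 and -2.25) and Tnfrsf11a (-2.53 and -2.59) lie at the bottom.

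After 3 h of IL6, no member was counted in either macrophage type. In GM-BMDM, the log2 ratios of 18 members ran from -0.36 (Tnfrsf22) to 0.22 (Tnfsf8), with 0.0585% of 10255 genes higher and 0.107% lower. In M-BMDM, those of 17 members ran from -0.27 (Tnfsf10) to 0.24 (Tnfrsf22), while 0.0906% of 9937 genes were higher and 0.272% lower. The background itself was thus near 0 at 3 h. Tnf was -0.22 in M-BMDM at that time.

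After 24 h of IL6, 8 of 17 members were lower than in M-BMDM without IL6, none was higher and 9 were neither. Over all 10313 genes, 8.93% were lower and 11.5% higher. The median log2 ratio was -0.78 over the 17 members and 0.02 over all genes. In order of size the lower members were Tnfrsf8, Tnf, Tnfrsf12a, Tnfrsf1b, Tnfsf10, Tnfrsf21, Tnfrsf22 and Tnfrsf14. Members within 2-fold included RANK (Tnfrsf11a, -0.26), TACI (Tnfrsf13b, 0.12), Tnfrsf1a (0.09), the ligand of 4-1BB (Tnfsf9, -0.38) and Tnfsf14 (0.82). Set against the 3 h library in place of the untreated one, an alternative chosen after seeing the data, 7 members were lower, all of them among the 8. Over all 10274 genes against the 3 h library, 883 were lower and 1204 higher. Macrophage markers in sum were 25380 CPM in the 24 h library and 33210 in M-BMDM, with 1 of the 8 higher and 1 lower. The 24 h culture is 1 library, and time in culture and IL6 cannot be told apart in it.

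**Figure D4:**
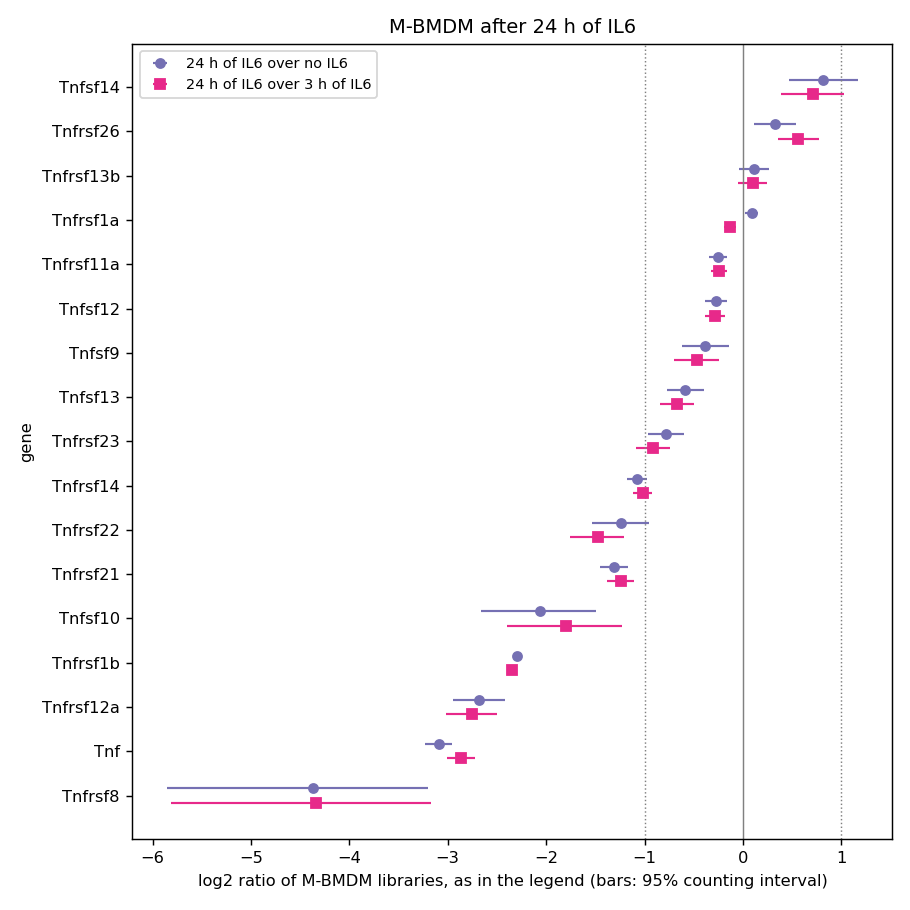
Log2 ratio of M-BMDM after 24 h of IL6 over M-BMDM without IL6 (circles) and over M-BMDM after 3 h of IL6 (squares) for 17 members, with 95% counting intervals and dotted lines at 2-fold. Tnfrsf8 (-4.37) and Tnf (-3.09) lie lowest, and Tnfsf14 (0.82) lies highest.

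Genes around the family were read from lists of the pathway. Of all genes, 8.93% were lower and 11.5% higher after 24 h of IL6 than in M-BMDM. Of 18 genes that TNF induces in many cell types, 13 had 5 CPM at 24 h or in M-BMDM, and 12 of these were lower after 24 h of IL6 with a list median of -3.49. They were led by Il1b, a cytokine that causes fever (-8.15), and the chemokines Cxcl1 (-4.46), Cxcl10 (-4.29) and Cxcl2 (-4.22). Il1b had 0.913 CPM in M-BMDM after 24 h of IL6, against 259.8 in M-BMDM. Of 12 signalling brakes, 7 were lower and 1 higher with a median of -1.14. The lower ones included Tnfaip3, the ubiquitin-editing enzyme A20 (-2.64), and the NF-kappaB inhibitors Nfkbie (-2.26) and Nfkbia (-1.92). Tnfaip8l2, a negative regulator of immune receptors, was the higher one (1.38).

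For the adaptors and kinases that carry the signal, the lower share at 24 h was near that of all genes. Of 28 such genes 27 had 5 CPM, 3 were lower and none was higher, with a median of -0.06. Of all genes in this comparison, 8.93% were lower and 11.5% higher. The 3 were Traf1, an adaptor that NF-kappaB induces (-2.80), Birc3, a ubiquitin ligase of the receptor complex (-1.98), and Cflar, an inhibitor of caspase-8 (-1.50). Of 4 sheddase genes at 5 CPM, Frmd8, which stabilises the sheddase complex, was higher (1.02) and its partner Rhbdf2 was lower (-1.40). Frmd8 was at the edge of 2-fold, with 44.5, 54.2 and 90.4 CPM in M-BMDM after 0, 3 and 24 h of IL6. Its 24 h level was within 2-fold of the 3 h one. Among superfamily receptors under other names, Cd40, through which T cells activate macrophages, was lower (-3.00), as was the death receptor Fas (-2.09), and Ltbr, the lymphotoxin beta receptor, was within 2-fold (-0.30). At 3 h none of these lists had a gene counted in either macrophage type.

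**Figure D5:**
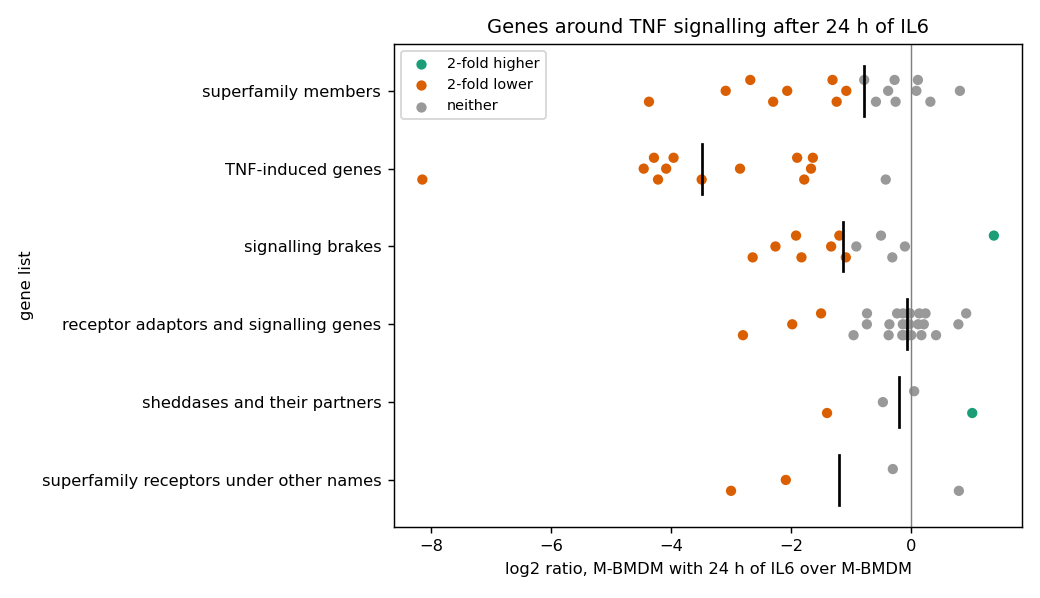
Log2 ratio of M-BMDM after 24 h of IL6 over M-BMDM for members and for genes of 5 pathway lists with 5 CPM in either library, 1 point per gene and a vertical bar at each list's median. The TNF-induced list has a median of -3.49, the brakes -1.14, and the adaptors -0.06.

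Between the macrophage types without IL6, 8.64% of all genes were lower in GM-BMDM and 10.8% higher. GM-BMDM had lower levels of 8 of 13 TNF-induced genes and a higher level of 1, with a median of -1.65. Ccl7 (-3.63), Cxcl10 (-2.76), Ptgs2, the inducible cyclooxygenase (-2.33), and Cxcl2 (-1.94) led the lower ones, and Bcl2a1b, a survival gene with near-identical copies whose reads may be divided, was the higher one (1.04). Among the brakes, 3 of 12 were lower and none was higher, namely Tnip3 (-1.68), Tnfaip3 (-1.43) and Nfkbia (-1.20). Of 27 adaptors, Ripk3, the kinase of necroptosis (1.97), and Traf5 (1.08) were higher, and Traf1 (-1.81), Cflar (-1.22) and Birc3 (-1.03) lower. In the pair with 3 h of IL6, where 8.06% of all genes were lower and 10.6% higher, 9 of 13 TNF-induced genes were lower. None was higher there, with Bcl2a1b at 0.97. In that pair Ripk3 (1.53) and Traf1 (-1.94) were again counted, and Traf5 (0.64), Cflar (-0.97) and Birc3 (-0.84) were within 2-fold. Cd40 was lower in the GM-CSF culture (-2.52), the orphan receptor Relt was higher (3.65), and Ltbr (0.02) and Fas (-0.12) were within 2-fold. No sheddase gene of the 4 at 5 CPM was counted.

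Against BM, where 19.8% of all genes were higher and 22.3% lower in GM-BMDM, 11 of 13 TNF-induced genes were higher and 1 lower (median 2.19), 4 of 12 brakes were higher and 1 lower, and 3 of 28 adaptors were higher and 4 lower. In M-BMDM, where 20.1% of all genes were higher and 23% lower, 13 of 14 TNF-induced genes were higher and 1 lower (median 4.20), 7 of 12 brakes were higher and none lower, and 3 of 28 adaptors were higher and 3 lower. Adam17, the sheddase that releases TNF and its receptors, was higher in GM-BMDM (1.93) and in M-BMDM (2.66) than in BM. Ltb, the membrane anchor of lymphotoxin, was lower in GM-BMDM (-3.77) and in M-BMDM (-7.38), and Lta, its partner, was at 2.16 CPM or less in every library. Cd40 was within 2-fold of BM in GM-BMDM (0.16) and higher in M-BMDM (2.69). Fas was within 2-fold of BM in both types (0.53 in GM-BMDM and 0.65 in M-BMDM), and Ltbr was higher in GM-BMDM (1.15) and in M-BMDM (1.13).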

How the data were processed

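Total RNA of 6 mouse libraries, 1 per group by the labels, was sequenced on an Illumina NovaSeq, per the labels' protocols. The authors deposited estimated counts per gene, beside a gene length. The submitters' processing notes name HISAT2, StringTie, DESeq2 and the GRCm38 build without versions; their roles, settings and use of strand are not given. Between 24.7% and 27.7% of values above 0 were not whole, and all were rounded. Rows without a gene name (742 of 56278, 0.240% to 0.522% of counts) were left out.

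TMM scaling (edgeR 4.0.16 in R 4.3.3) used genes with at least 1 CPM in some library. Ratios were computed for the whole table with exact conditional binomial intervals and read for the members and for pathway and marker lists. Intervals and floors hold counting error alone, because amplified reads that lack molecular identifiers do not each stand for a molecule. TPM used the deposited length. Every member with 5 CPM is described, and of each pathway list up to 4 counted genes plus Lta, Ltb, Cd40, Fas and Ltbr. Socs3, Tnfaip8l2, Bcl2a1b, Dcstamp, Birc3, Itgax, Siglecf, Il7r and Pf4 were named outside this rule after their values were seen. The members and lists were chosen with earlier results of these data known, and 1 marker is not reported here. Positions came from GENCODE M21 and promoters from RefSeq. Alternatives were DESeq2 1.42.0 size factors, total counts, no CPM minimum, a fold of 1.5 and 3 h libraries in place of controls. The ratios, intervals and calls were tested on counts simulated with counting error alone and scaled by total counts. That test did not cover the TMM scaling or differences between cultures.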

Additional observations from a re-analysis of the deposited data

How the results depend on the processing

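With DESeq2 size factors the same members were counted in all 7 comparisons. Without a CPM minimum, 17 members were counted in GM-BMDM against M-BMDM (11 with it), 25 in M-BMDM against BM (15 with it), 1 in GM-BMDM with 3 h of IL6 against GM-BMDM and 1 in M-BMDM with 3 h of IL6 against M-BMDM (0 with it in both). The added members all had under 5 CPM. Shares over all genes were not computed without the minimum or at a fold of 1.5. At a fold of 1.5, 20 members were counted in GM-BMDM against BM, 18 in M-BMDM against BM, 14 in GM-BMDM against M-BMDM, 15 in that pair with IL6 (10 at 2-fold), 10 at 24 h, among them 1 higher (Tnfsf14), and 0 at 3 h in both types. Total counts shifted the median log2 ratio of all genes by -0.33 for GM-BMDM over BM, -0.17 for M-BMDM over BM, -0.16 for GM-BMDM over M-BMDM, -0.11 for the same pair with IL6 and 0.14 for 24 h of IL6; 36 of 132 single-gene values moved beyond their counting interval and none that was counted changed sign. Calls lost or gained by this scaling (Tnfrsf10b and Tnfrsf14) are given with the genes. With the 3 h libraries in place of the controls, chosen after seeing the data, the same 20 and 15 members were counted against BM. Of all genes there, 2270 of 11345 were higher and 2616 lower with GM-BMDM. With M-BMDM, 2244 of 11213 were higher and 2616 lower. With 1 library per group no library could be left out, and differences between cultures of 1 kind were not measured. No paired analysis was possible because each group has 1 library and the ratios come from no replicate test. Members with few counts, such as Tnfrsf8 with 6 at 24 h, have wide intervals.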
